A study of Mus musculus with 3 samples.

Results

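The SLC25 genes encode the mitochondrial carriers, and they were examined here for nearby binding of HIF1α in the embryonic mouse heart. Members were all protein-coding genes of the RefSeq annotation whose symbol begins with Slc25a, which gave 47 of 21779 nuclear protein-coding genes, on 19 chromosomes. That rule uses no measured value, but it was chosen with earlier results of these data known. The chromatin came from wild-type hearts of Black-Swiss embryos at E12.5 (the embryonic day), and 2 libraries were HIF1α pulldowns and 1 was an input, prepared without antibody. The labels do not say whether the pulldowns came from separate litters or pools. All libraries were from whole hearts, so every cell type of the organ contributed. A peak list holds no expression values, and the heart label was therefore not checked against marker genes.

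Mitochondrial carriers are proteins of the inner mitochondrial membrane, built from repeated pairs of membrane-spanning helices, that move metabolites between cytosol and matrix. They exchange ADP for ATP, bring in phosphate, shuttle reducing equivalents as malate and aspartate, and carry acylcarnitines, amino acids and cofactors. HIF1α is the part of hypoxia-inducible factor that oxygen destabilises, and it activates genes of glycolysis and restrains the use of pyruvate in mitochondria when oxygen is low. In the heart, which depends on mitochondrial ATP, the carriers set what enters and leaves the matrix.

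The measurement was the authors' list of 17289 peaks merged from both pulldowns, on the mm10 build. Each peak has a whole-number score, from 2 to 3315 with a median of 2, and a name ending in 1 or 2, read here as the number of calls merged into it. Peaks of 2 calls made up 11.5% of the list, and 15.4% of all peaks scored at least 4. Because the libraries were merged, the values below come without replicate errors. Library depth is unknown from the list, and single calls carry no mark of their pulldown. Intervals, where given with shares of genes, are exact 95% Clopper-Pearson intervals, which cover counting error over genes only.

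The SLC25 family as a whole was near peaks about as often as other genes. Of its 47 members, 12 (25.5%, interval 13.9 to 40.3%) lay within 5 kb of a peak centre, measured from whichever gene end was closer. The share was 24.1% of 21390 other protein-coding genes and 17.8% (interval 13.9 to 22.3%) of 342 other genes whose symbol begins with Slc, the Slco transporters included. For peaks of 2 calls the count was 5 of 47 (10.6%, interval 3.55 to 23.1%), against 7.74% of other protein-coding genes and 6.14% of other Slc genes. The members' intervals span both background shares in each case. No test of the family as a set was made. The order of the shares against other protein-coding genes held in most of the settings tried and turned in the following. With scores of at least 3 the members' share was 14.9% against 19.4%, and in a window of 500 bp it was 10.6% against 13.7%.

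**Figure D1:**
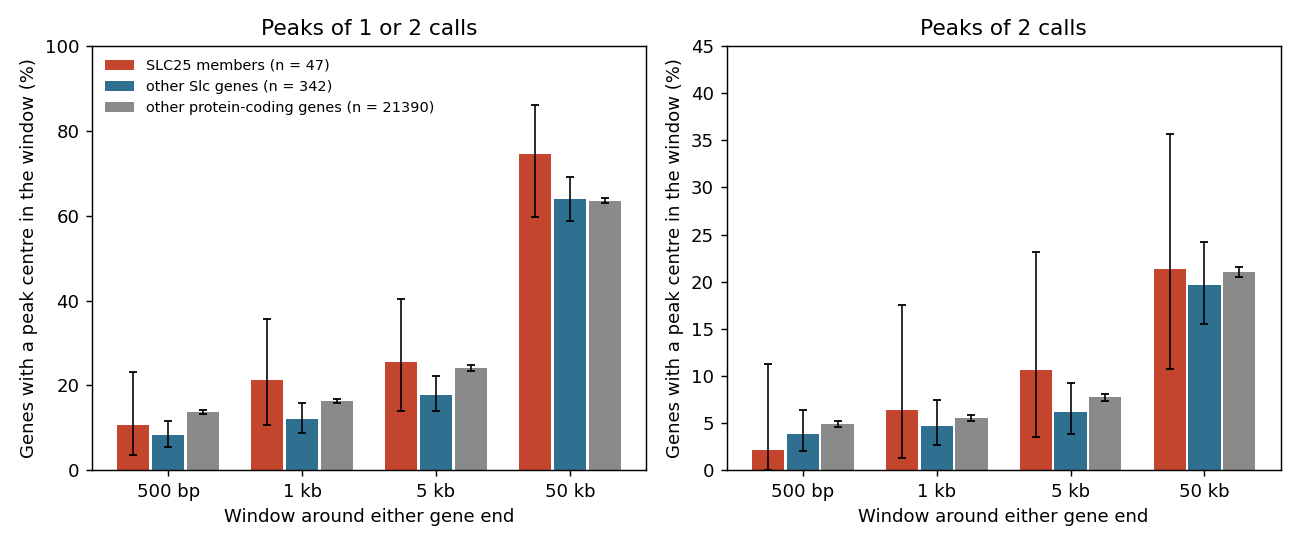
Share of genes with a peak centre in the window (y axis, percent, starting at 0) for 4 windows around either gene end (x axis), for all peaks at left and peaks of 2 calls at right; the 2 panels have different y scales. Bars are shares of the 47 SLC25 members, 342 other Slc genes and 21390 other protein-coding genes, and error bars are exact 95% Clopper-Pearson intervals. The members' intervals are wide, and at 5 kb they reach from 13.9 to 40.3% for all peaks.

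Promoter windows of the reference held at least 100 bases of 5 peaks within 5 kb of a member, and 4 of these stretches are shown first, because they differ in the HIF core they hold. HIF1α with its partner ARNT binds a short core, searched here as ACGTG and GCGTG on both strands. CACGTG, which is also the core of an E-box, contains ACGTG on each strand. Below are the stretches of 4 peaks near members, on the plus strand of GRCm38.p6 (the same build as mm10), from RefSeq promoter windows running from 250 bases before to 50 after a transcription start. Capitals mark each core. Slc25a15 (chr8:22398572-22398697, the part of the 151 bp peak that its promoter window holds) has 2 GCGTG cores. The nearer of them is centred 25 bp from the middle of the peak. Slc25a30 (chr14:75787021-75787121) has 1 of each core, the nearer of them centred 4 bp from the middle of the peak. The second peak counted for Slc25a30 (chr14:75754590-75754738) lies in the promoter window of Cog3, and it has 1 ACGTG, centred 53 bp from its middle. Slc25a29 (chr12:108835936-108836036) has neither. The fifth, not printed, is the peak of score 5 and 1 call at Slc25a44 (chr3:88410434-88410534), in the promoter window of Pmf1. It also has neither core, so 3 of the 5 stretches held one.
Slc25a15: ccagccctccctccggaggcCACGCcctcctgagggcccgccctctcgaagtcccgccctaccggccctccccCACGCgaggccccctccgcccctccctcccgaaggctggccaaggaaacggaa
Slc25a30: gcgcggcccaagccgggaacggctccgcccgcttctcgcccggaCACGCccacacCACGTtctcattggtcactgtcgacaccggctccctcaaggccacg
Slc25a30 at Cog3: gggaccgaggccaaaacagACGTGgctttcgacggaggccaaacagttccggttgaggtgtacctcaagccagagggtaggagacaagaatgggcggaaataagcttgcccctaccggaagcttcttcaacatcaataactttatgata
Slc25a29: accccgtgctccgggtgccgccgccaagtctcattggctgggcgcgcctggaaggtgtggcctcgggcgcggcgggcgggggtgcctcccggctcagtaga

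Across the whole list, 1271 peaks lay entirely inside a promoter window, and 50.5% of them held ACGTG or GCGTG and 27.9% held ACGTG. Among peaks of 1 call these shares were 41.5% and 17.5%. Peaks of 2 calls, which are wider with a median of 120 bp, held either core in 66.9% and ACGTG in 46.7%. In the 50 of the latter scoring at least 10, the shares reached 84.0% and 74.0%. None of the peaks within 5 kb of a member scored above 7, and only 1.2% of the whole list scored at least 10.

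Merged peaks of 2 calls lay within 5 kb of 5 members. Slc25a15, the ornithine carrier of the urea cycle, had the closest one, centred 1 bp outside the gene at its transcription start, with a score of 3. It was 151 bp wide (chr8:22398547-22398697), and the end of a noncoding gene, 1810012K16Rik, lay 99 bp away. Slc25a11, which exchanges 2-oxoglutarate for malate in the malate-aspartate shuttle, had a peak of score 4 inside the gene (chr11:70646850-70646964). Its centre lay 132 bp downstream of the annotated start, and 323 bp from the end of Rnf167, which was nearer to it than the end of Slc25a11 at 624 bp. Slc25a33, a pyrimidine nucleotide carrier, held a peak scoring 5 within its body, 1678 bp downstream of the start (chr4:149772525-149772654). The next coding gene end, at Tmem201, was 34.5 kb away.

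The remaining peaks of 2 calls also sat closer to the end of a neighbouring gene than to an end of the carrier, as at Slc25a11. Slc25a41, an ATP-magnesium/phosphate carrier, had the highest score of the family, 7, in a peak 747 bp outside the gene (chr17:57031973-57032078). That peak lay 518 bp from the end of Khsrp, which encodes an RNA-binding protein, and 2.76% of all peaks scored as high or higher. Slc25a30, a relative of the uncoupling proteins, had one scoring 4, centred 2870 bp beyond the 3′ end of the gene and 26 bp from the end of Cog3, a gene of the Golgi tethering complex. In all, 3 of the 5 peaks of 2 calls were nearer to the end of another coding gene than to an end of the member. Of these, the peak at Slc25a11 lay inside that gene, 132 bp from its annotated start. When a peak counted only for the coding gene with the nearest end, 2 members kept a peak of 2 calls, Slc25a15 and Slc25a33 (4.26%). Shares of the background groups for peaks of 2 calls were not computed under that rule, so the drop stands without a background. For all peaks the rule lowered the share in every group. It went from 25.5 to 21.3% for members, 24.1 to 19.2% for other protein-coding genes and 17.8 to 15.2% for other Slc genes.

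A further 7 members were near peaks of 1 call alone. Slc25a44, which carries branched-chain amino acids, had 2 such peaks, of score 5 at 10 bp and of score 3 at 194 bp. The first was centred between it and Pmf1, whose end was 39 bp away, and the second lay 145 bp from that end of Pmf1. Slc25a25, a calcium-regulated ATP-magnesium/phosphate carrier, had a peak of score 4 at 725 bp upstream of its start and another of score 2 at 2716 bp beyond its 3′ end. The remaining 5 each had a single peak of score 2, the lowest in the list. At Slc25a29, a carrier of basic amino acids, it lay 110 bp upstream of the start. For Slc25a20, the carnitine-acylcarnitine carrier needed for long-chain fatty acid oxidation, the distance was 448 bp upstream. Slc25a26, the S-adenosylmethionine carrier, had its peak inside the gene at 731 bp from an end. In Slc25a5, which encodes an ADP/ATP carrier and lies on chromosome X, it was inside at 864 bp from the start. Slc25a48 held one inside, 4230 bp from the gene end and 3835 bp downstream of the annotated start. It was the member nearest to the 5 kb limit from within, and Slc25a2, 5598 bp from its nearest peak, was the first beyond it. That peak, of 1 call with a score of 3, lay 117 bp from Taf7.

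Scores of 10 or more were rare near genes of each background group, and the family had none within 5 kb. The 15 peaks within 5 kb of a member scored 2 to 5 for the 10 of 1 call and 3 to 7 for the 5 of 2 calls. Of the 12 members near a peak, 6 (50.0%) had one scoring at least 4, against 44.1% of other protein-coding genes near a peak and 41.0% of other Slc genes near one. None had a score of 10 or more, against 3.48% of other protein-coding genes near a peak and 3.28% of other Slc genes near one. With shares this low, 12 members are too few for the absence to set the family apart. Among other Slc genes the highest score was 55, at Slc16a3, which encodes the lactate exporter MCT4. That peak was of 2 calls and was centred 2513 bp from the nearer gene end. Slc2a1, the gene of the glucose transporter GLUT1, followed with 17. Then came 9 at Slc4a2, an anion exchanger, and 9 at Slc30a9, of a zinc transporter family.

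**Figure D2:**
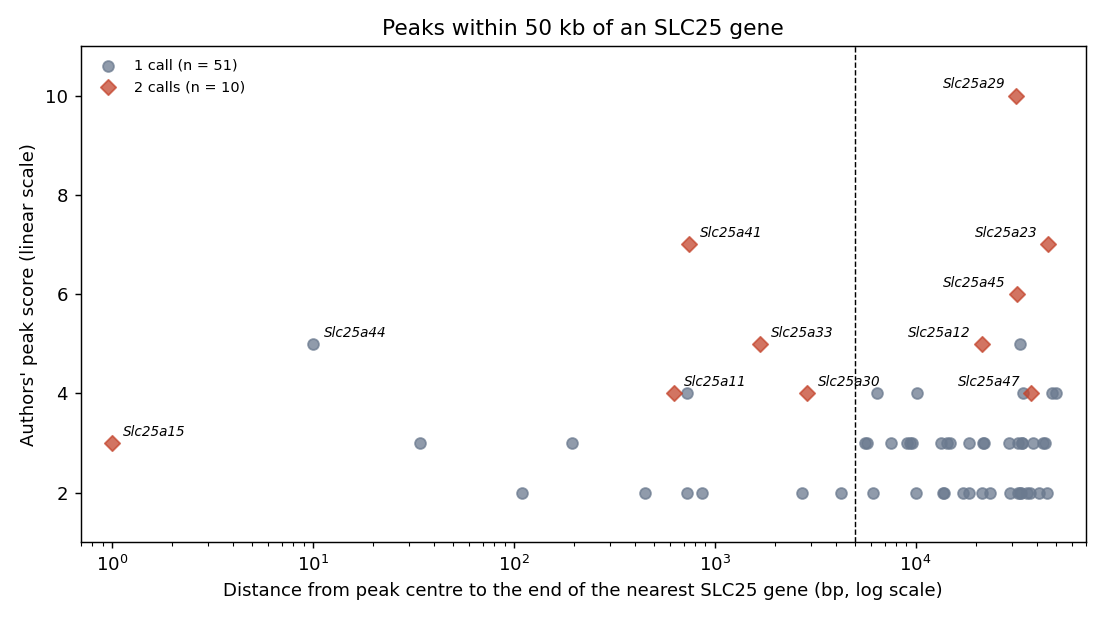
Authors' score (y axis, linear) of each of the 61 peaks within 50 kb of an SLC25 gene against its distance to the end of the nearest one (x axis, bp, log scale), as circles for peaks of 1 call and diamonds for peaks of 2 calls, with the dashed line at 5 kb. All peaks of 2 calls are named by the nearest member, as is the peak of score 5 at Slc25a44. The 2 peaks of score 7 and the peak of score 10 were of 2 calls.

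By substrate, the counts were small in every class. Among 11 carriers of adenine nucleotides, phosphate or related coenzymes, 3 lay within 5 kb of a peak (Slc25a5, Slc25a25 and Slc25a41). The heart and muscle ADP/ATP carrier gene Slc25a4 was not among them, with its nearest peak 94.8 kb away, and neither was the phosphate carrier gene Slc25a3, at 44.2 kb. Of 9 amino acid carriers, 3 were near a peak (Slc25a15, Slc25a29 and Slc25a44). Slc25a12 and Slc25a13, the aspartate-glutamate carriers of the malate-aspartate shuttle, had their nearest peaks at 21.3 and 9.06 kb. The peak at Slc25a13 lay inside that gene and had a score of 3 from 1 call.

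Of 4 di- and tricarboxylate carriers, 1 was near a peak (Slc25a11). The citrate carrier gene Slc25a1 and the dicarboxylate carrier gene Slc25a10 had theirs at 58.8 and 33.7 kb. The acylcarnitine carrier and its relatives gave 2 of 4 (Slc25a20 and Slc25a48), both with peaks of 1 call, and the uncoupling protein-like carriers 1 of 3 (Slc25a30). In the class of cofactor, nucleotide, iron and glutathione carriers, 2 of 10 were near a peak (Slc25a26 and Slc25a33). The iron importers of the matrix, mitoferrin 1 (Slc25a37) and mitoferrin 2 (Slc25a28), had theirs at 13.7 and 14.3 kb. None of the 6 carriers without a settled substrate was near a peak. Of these, Slc25a34 was 72.1 kb from its nearest peak and Slc25a53 142 kb. Classes of this size allow no comparison of shares.

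**Figure D3:**
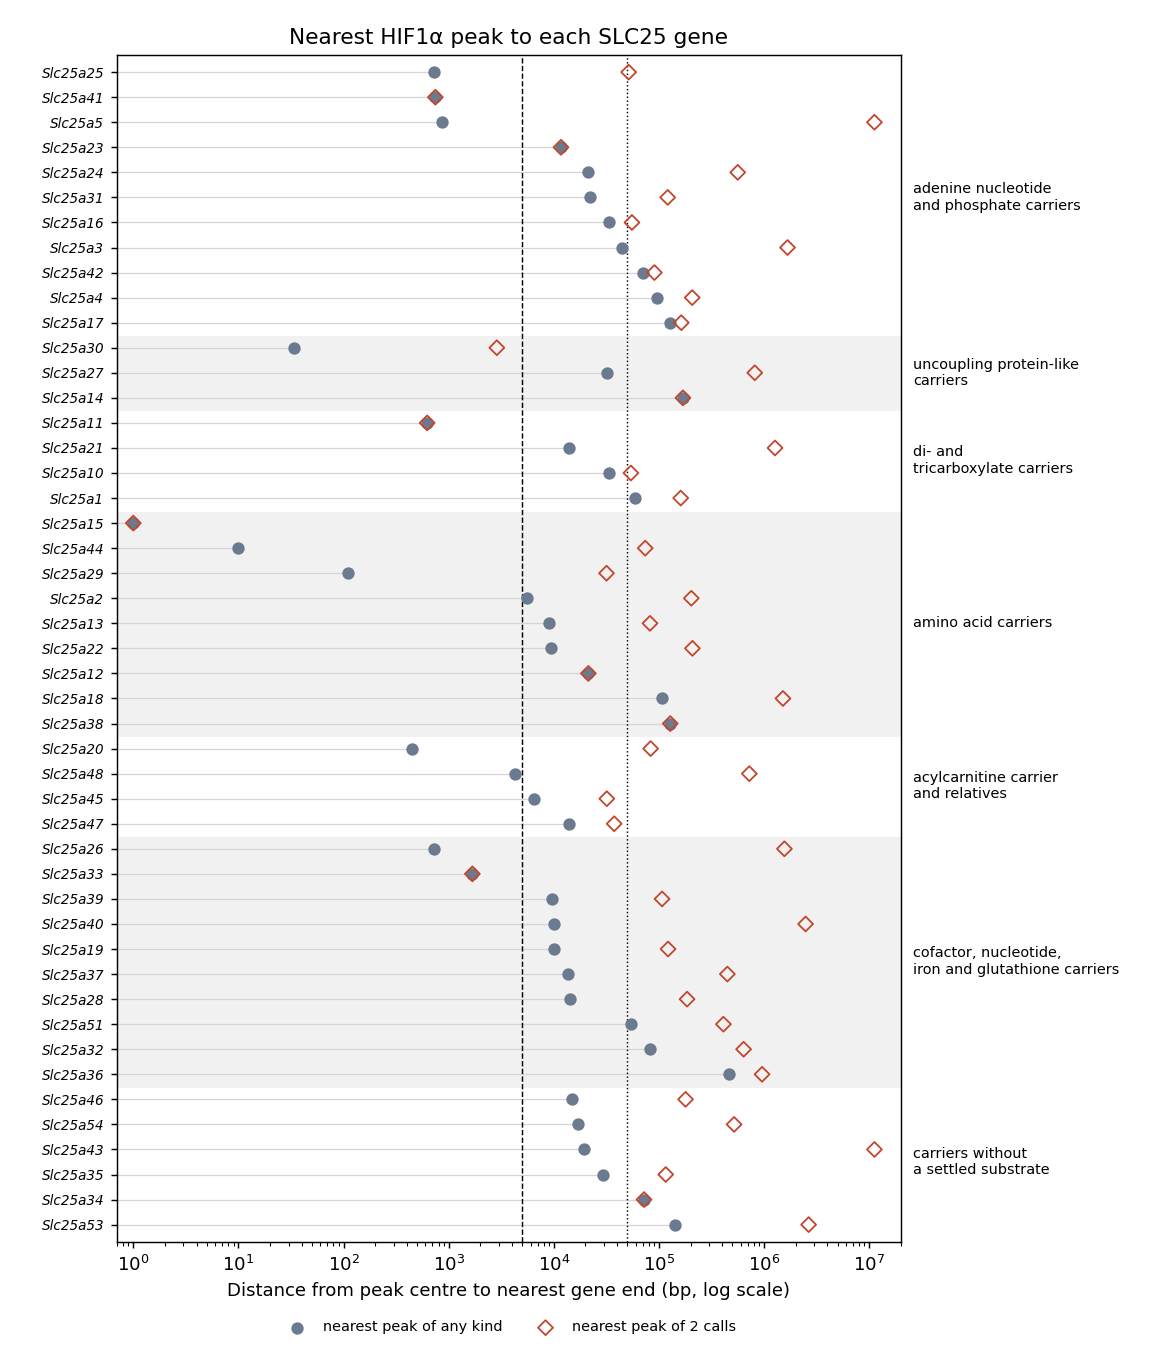
Distance from the end of each of the 47 SLC25 genes to the nearest peak centre (x axis, bp, log scale), as filled circles for any peak and open diamonds for peaks of 2 calls, with genes on the y axis grouped by substrate class. Lines mark 5 kb (dashed) and 50 kb (dotted). Distances run from 1 bp at Slc25a15 to 459 kb at Slc25a36, and 12 circles lie left of the dashed line.

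Windows of 1 and 50 kb were also counted. Within 1 kb, 10 of 47 members (21.3%, interval 10.7 to 35.7%) had a peak, against 16.3% of other protein-coding genes and 12.0% of other Slc genes. For peaks of 2 calls at 1 kb the count was 3 (6.38%), against 5.55% and 4.68%. Within 50 kb, 35 members (74.5%, interval 59.7 to 86.1%) had a peak, against 63.5% of other protein-coding genes and 64.0% of other Slc genes. Peaks of 2 calls lay within 50 kb of 10 members (21.3%), against 21.0% and 19.6%. The median distance to the nearest peak was 14.3 kb for members, 28.4 kb for other protein-coding genes and 27.2 kb for other Slc genes. For the nearest peak of 2 calls it was 161, 271 and 218 kb.

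Gene length and gene density were set beside these distances. The median gene length was 21.5 kb for members, 17.0 kb for other protein-coding genes and 31.0 kb for other Slc genes. For genes near a peak at 5 kb and for the rest, the median length was 22.8 and 20.7 kb among members. It was 18.9 and 16.3 kb among other protein-coding genes, and 24.9 and 32.7 kb among other Slc genes. A median of 3 coding genes came within 50 kb of a member, against 3 for other protein-coding genes and 2 for other Slc genes, with means of 3.68, 3.1 and 2.75. The part of these differences in the shares was not tested. Chromosome X carried 4 members, of which 1 was near a peak at 5 kb, against 9.68% of 950 other protein-coding genes of that chromosome. Among autosomal genes the shares were 25.6% of 43 members and 25.0% of other protein-coding genes.

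**Figure D4:**
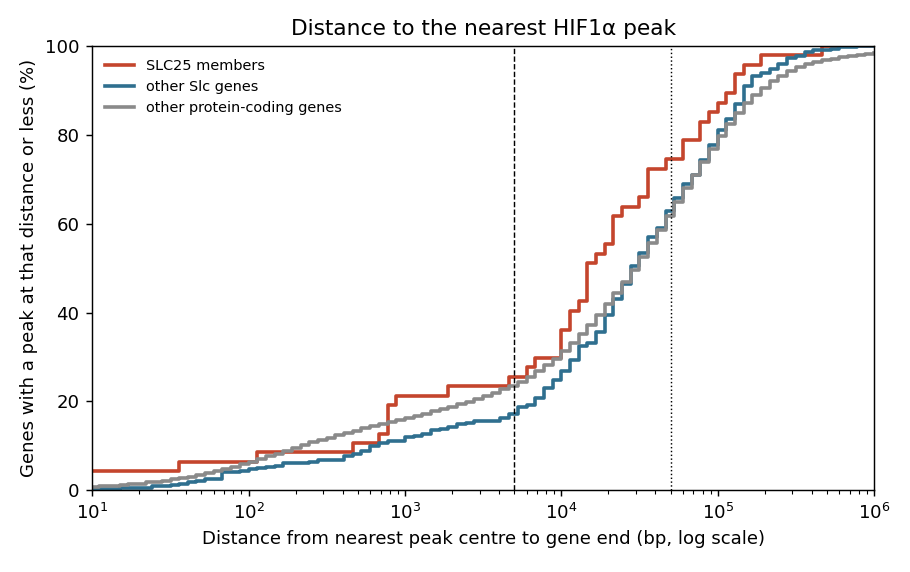
Cumulative share of genes (y axis, percent) whose nearest peak centre lies at or below a given distance from a gene end (x axis, bp, log scale), for SLC25 members, other Slc genes and other protein-coding genes. Lines mark 5 kb (dashed) and 50 kb (dotted). The curves of members and other protein-coding genes cross below 1 kb, stand at 21.3 and 16.3% at 1 kb and at 25.5 and 24.1% at 5 kb, and part again to 74.5 and 63.5% at 50 kb.

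Peaks further out were set against the ends of other genes. The 50 kb windows held 61 peaks, 10 of them of 2 calls, and for 19 of the 61 the nearest coding gene end was that of a member. Of the 46 peaks between 5 and 50 kb, 18 lay within 1 kb of another coding gene. The matching shares for peaks around other genes were not computed, so these counts stand without a background. The highest score in the windows, 10, was in a peak of 2 calls 31.7 kb from Slc25a29 and 1280 bp from Yy1, a transcription factor gene. For Slc25a12 the peak of 2 calls, of score 5, was 176 bp from Hat1, which encodes a histone acetyltransferase. At Slc25a23 the 2 peaks of score 7 were 518 bp from Khsrp and 116 bp from Tnfsf9. The first is the peak described above at 747 bp from Slc25a41, so it is not among the 46. The peak of 2 calls in the window of Slc25a47, of score 4, was 108 bp from Wars, a tRNA synthetase gene. The peak of 2 calls in the window of Slc25a45, of score 6, was 5035 bp from the nearest coding gene end, at Frmd8, and 459 bp from the noncoding gene Neat1.

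Some members are neighbours and therefore share peaks. There were 4 such pairs with less than 50 kb between them. Slc25a41 and Slc25a23, both ATP-magnesium/phosphate carriers, lie 2.06 kb apart and had 2 peaks in common. Slc25a54 and Slc25a24, 6.57 kb apart, shared 1. Slc25a29 and Slc25a47, with 14.0 kb between them, likewise shared 1. Slc25a43 and Slc25a5, separated by 18.3 kb on chromosome X, had all 3 of their peaks in common. The members are thus not independent of each other in the 50 kb counts.

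Peaks deeper inside the gene, beyond 5 kb from both ends, were found in 5 more members, all of 1 call with scores of 2 or 3. The genes were Slc25a13, Slc25a21, Slc25a24, Slc25a40 and Slc25a46, and Slc25a21, the longest at 485 kb, held 2. With these counted, 17 of 47 members (36.2%) had a peak, against 32.7% of other protein-coding genes and 27.8% of other Slc genes.

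Promoter windows of 300 bases were found in the RefSeq table (GRCm38.p6) for 36 of the 47 members. ACGTG occurred in at least 1 window of 12 of them (33.3%), against 23.1% of 17190 other protein-coding genes and 28.6% of 266 other Slc genes. GCGTG occurred in 21 (58.3%), against 41.4% and 41.7%, and CACGTG in 7 (19.4%), against 8.81% and 13.9%. Counting either ACGTG or GCGTG, 21 members (58.3%) had at least 1 core, against 52.2% and 56.4%. Over all 32851 windows of the table, 19.6% held ACGTG, 32.4% GCGTG and 7.15% CACGTG. Base composition differed alongside. For each gene the window with the most CpG dinucleotides was taken. The median over genes was 18.5 for members and 14 for both other Slc genes and other protein-coding genes. The part of CpG content in the motif shares was not tested.

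Both cores were also counted in members with and without a nearby peak. ACGTG was present for 3 of the 9 members near a peak that had a window and for 9 of the 27 others, which is 33.3% in both. GCGTG was present for 5 of 9 (55.6%) and 16 of 27 (59.3%), and CACGTG for 2 of 9 (22.2%) and 5 of 27 (18.5%). These differences were not tested. The median of the highest CpG count per gene was 25 for the 9 and 17 for the 27. The promoter of Slc25a1, the citrate carrier gene, is printed as an example of cores without a nearby peak, chosen after its values were seen (chr16:17928170-17928469, gene strand, 5′ to 3′, cores in capitals). It holds CACGTG, a further ACGTG and 5 GCGTG, and its nearest peak was 58.8 kb away.
Slc25a1: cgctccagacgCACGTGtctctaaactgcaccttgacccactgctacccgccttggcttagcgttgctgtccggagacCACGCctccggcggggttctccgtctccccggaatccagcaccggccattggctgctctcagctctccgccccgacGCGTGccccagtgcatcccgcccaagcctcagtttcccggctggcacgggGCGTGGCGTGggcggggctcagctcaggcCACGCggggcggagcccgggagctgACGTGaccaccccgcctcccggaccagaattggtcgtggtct

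Other mitochondrial transport genes, not named Slc25a, were taken from lists chosen with earlier results of these data known. They were near peaks in 13 of 30 cases (43.3%), against the 24.1% of other protein-coding genes given above. For 3 of the 30 (10.0%) such a peak had 2 calls, against 7.74%. No interval was computed for these 30, and the difference was not tested. The porin genes of the outer membrane gave 2 of 3. At Vdac3 a peak of 2 calls scored 5 and lay 75 bp from the gene end. Vdac1 had 2 peaks of 1 call, and the higher one scored 6 at a distance of 49 bp. The machinery that imports proteins such as the carriers gave 7 of 15. Timm29, a subunit of the TIM22 complex, and Tomm6, of the outer membrane translocase, each carried a peak scoring 5 from 2 calls, at 208 and 342 bp. Of the carrier relatives with other names, 2 of 5 were near a peak, both of 1 call. Among the pyruvate carrier and sideroflexin genes it was 2 of 7, again of 1 call alone. Lists of this size allow no comparison of shares.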

How the data were processed

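Peaks of HIF1α ChIP-seq were taken from the authors' merged list, made with Bowtie2 and HOMER on mm10, per the submitters' processing notes (without versions). Per the file headers, each of 2 pulldowns was called against the same input, so calls from both share that control. Neither the calling threshold nor the merging rule is stated there. The deposited score is a whole number whose scale the header does not state, and it was used only to rank and describe peaks within the list. The header names 10 columns and the file holds 6, read by position.

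Gene positions came from RefSeq for GRCm38.p6. Genes without a usable chromosome position were left out (340 below 3 Mb outside chromosome Y, and 17). Distances run from peak centre to the nearer gene end, since that table gives no strand. Strand and start came from the promoter table where a gene was listed. A gene was near a peak at 5 kb or less. Members and lists were chosen with earlier results of these data known. Named were every member near a peak, at most 2 per class without one, the 5 other Slc genes with the highest scores (1 is not reported here), listed transport genes with peaks of 2 calls, and, after their values were seen, genes of small counts. No set test was run. The counting code was checked on simulated peaks planted at known distances from genes drawn from the 21779. Planted genes were counted once per window that reached the planted distance, and 2000 of 2000 such cases were recovered. This checks the code only. Alternatives were other windows, scores of at least 3, peaks of 2 calls, nearest gene only, any overlap, peaks inside genes, and transcription starts alone. Python 3.11.15, pandas 2.3.3 and scipy 1.17.1 were used.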

Additional observations from a re-analysis of the deposited data

How the results depend on the processing

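The count of members near a peak, 12 at 5 kb, was 10 at 1 kb, 10 with each peak given to its nearest coding gene, 12 with any overlap, 17 with peaks inside genes and 9 of 36 at transcription starts. It moved to 35 at 50 kb, 5 at 500 bp, 7 with scores of at least 3 and 5 with peaks of 2 calls. Members near a peak of 2 calls, 5 at 5 kb, numbered 3 at 1 kb, 10 at 50 kb, 1 at 500 bp, 2 by nearest coding gene and 3 at transcription starts. Other Slc genes, 61 at 5 kb, gave 219 at 50 kb, 28 at 500 bp, 95 with peaks inside genes and 21 with peaks of 2 calls. Other protein-coding genes, 5149 at 5 kb, gave 13593 at 50 kb, 2925 at 500 bp and 1656 with peaks of 2 calls. The 30 listed transport genes not named Slc25a, 13 at 5 kb, gave 24 at 50 kb and 3 with peaks of 2 calls. For these 30, the alternatives were chosen after seeing the data. The wider or narrower counts follow from how each alternative is built. The members' share exceeded that of other protein-coding genes at 5 kb by 1.4 percentage points, and the difference was -3.1 at 500 bp and -4.5 with scores of at least 3.

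Of the 12 members near a peak, 5 had none scoring at least 3 and 7 had none of 2 calls. No paired analysis was possible because the list merges both pulldowns and the input has no replicate, and for the same reason no library could be left out. Depth is unknown, so a member without a peak may carry binding below the authors' threshold. The absence of a peak was not compared with read coverage or mappability.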
